A study of Homo sapiens with 36 samples.

Results

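The IL-6 family, its JAK kinases and STAT3 were followed through 4 human prostate cancer cell lines that had been cultured alone or beside bone cells. The 10 genes were chosen by name, out of the 27852 genes with a symbol in the table: the ligands IL6 and LIF, the receptor chains IL6R, IL6ST, LIFR and OSMR, the kinases JAK1 and JAK2, the transcription factor STAT3 and the feedback inhibitor SOCS3. C4-2 and C4-2B stood for prostate cancer that forms osteoblastic bone metastases (BPCa), and DU145 and 22Rv1 for prostate cancer with osteolytic bone metastases (LPCa). None of the lines carried a labelled gene edit, and each type of metastasis was represented by 2 lines, so that type and cell line cannot be told apart. Each line was grown alone (mono-culture, 3 libraries), with MG63 (2 libraries), with RAW264.7 plus RANKL (2 libraries) and alone with RANKL (2 libraries), which gave 36 libraries in 16 groups. MG63 is a human osteosarcoma line with osteoblast-like properties, and RAW264.7 is a mouse monocytic line that forms osteoclasts when it is given RANKL, the cytokine that drives osteoclast formation. The partners were kept apart by the porous membrane of a NICO-1 horizontal chamber, the medium of all groups was alphaMEM with fetal bovine serum, and recombinant mouse RANKL was used at 50 ng/mL. The co-culture with MG63 lasted 5 days. Poly-A RNA of the cancer cells was sequenced with a strand-specific protocol. The labels do not say whether the replicates were separate cultures, so the p-values below measure the spread between these libraries, which may be technical.

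In this pathway a ligand binds its own receptor chain, such as the IL-6 receptor or the LIF receptor, and the complex recruits gp130, the shared signalling chain that IL6ST encodes. Oncostatin M uses gp130 with OSMR. The chains have no enzyme activity of their own: JAK1, JAK2 and TYK2 bound to their tails phosphorylate STAT3, which enters the nucleus and switches on genes that include SOCS3, an inhibitor that blocks gp130 and the kinases in turn. In prostate cancer IL-6 is known as a growth and survival signal, and in bone it is made by osteoblasts and marrow stroma. RNA levels of these genes do not measure how much STAT3 is phosphorylated.

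The library totals were 23932472 to 36719047 counts in the 12 mono-cultures that had no RANKL and 9593426 to 15418211 in the rest. Levels are given in CPM, counts per 1000000 counts of the library, on which scale 3 counts were worth at most 0.125 CPM in the former and at most 0.313 CPM in the latter. The total of mono-culture without RANKL therefore differed from that of every other group, and depth cannot be told apart from culture in the comparisons against it. As a check of the labels, 8 luminal prostate markers summed to between 6145 and 8899 CPM in C4-2 and C4-2B without RANKL, 1247 and 1346 CPM in 22Rv1 mono-culture and 34.9 and 41.7 CPM in DU145 without RANKL. Of 14 mesenchymal markers of MG63, POSTN, LUM, THY1 and PRRX1 were at 3 counts or fewer in each C4-2, C4-2B and DU145 library with MG63. In 22Rv1 with MG63 POSTN, LUM and PRRX1 exceeded 3 counts in at least 1 library. Of these, POSTN was at 3 counts or fewer in every 22Rv1 library of the other cultures. The summed level of the 14 was 10.5 to 11.1 CPM in C4-2 alone and 9.88 to 14.6 CPM with MG63, 9.82 to 10.2 and 11.0 to 11.1 CPM in C4-2B, 8.91 to 11.3 and 8.81 to 15.8 CPM in DU145, and 49.6 to 53.8 and 68.2 to 70.7 CPM in 22Rv1, where RUNX2 and TWIST1 of the list were called higher. In DU145 with MG63 COL5A2 of the list was called higher, at 2.75 and 6.10 CPM against 1.95 to 2.44 CPM (1.08 on the log2 scale, and 1.02 over mono-culture with RANKL), and RUNX2 was called lower (-1.11). Without replicate 2 of DU145 with MG63 neither was called. Of the 12 macrophage and osteoclast markers, TYROBP, AIF1, OCSTAMP and DCSTAMP were at 3 counts or fewer in every library. The summed level of the 12 was 59.0 to 92.4 CPM over the DU145 libraries, 22.2 to 32.9 CPM over those of C4-2 and C4-2B and 11.9 to 14.8 CPM over those of 22Rv1. CD68 was called higher and CTSK lower in 22Rv1 with MG63. The part of these levels in the results was not tested. Replicate 2 of DU145 with MG63 stood apart from replicate 1 in several members, and results that rest on it are given with and without it.

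The stretches of DNA before the starts of IL6 and SOCS3 are shown because these 2 genes were the members at or near 0 counts in 3 lines and clearly present in the fourth. Both come from RefSeq (build GRCh38.p14) and hold the 250 bases before the annotated start, written 5′ to 3′ on the strand of the gene. IL6 lies on the plus strand (chr7:22725884-22732002), and its stretch is chr7:22726950-22727199; the capitals mark a match to GGGANTTTC, a form of the NF-kB motif, that begins 73 bases before the start. This RefSeq start falls inside the longer gene model of GENCODE 29, from which the gene positions here are taken. SOCS3 lies on the minus strand (chr17:78356778-78360077), and its stretch is chr17:78360926-78361175; the capitals mark a match to TTCNNGAA, a spacing that STAT proteins can bind, 215 bases before the start. RefSeq holds 2 starts for SOCS3, and the stretch shown is that of the outer start, which lies upstream of the GENCODE gene and was chosen because it holds the match.
IL6: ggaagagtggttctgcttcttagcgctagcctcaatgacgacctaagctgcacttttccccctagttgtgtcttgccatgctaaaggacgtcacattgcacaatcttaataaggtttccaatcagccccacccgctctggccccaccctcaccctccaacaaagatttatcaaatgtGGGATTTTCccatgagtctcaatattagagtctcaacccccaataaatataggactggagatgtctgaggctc
SOCS3: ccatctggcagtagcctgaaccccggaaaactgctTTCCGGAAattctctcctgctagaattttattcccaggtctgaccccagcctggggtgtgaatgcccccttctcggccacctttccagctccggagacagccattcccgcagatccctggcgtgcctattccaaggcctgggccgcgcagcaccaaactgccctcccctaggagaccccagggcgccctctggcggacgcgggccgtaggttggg

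Motifs were searched on both strands in windows from 250 bases before to 50 bases after each start, where 9 of the 10 genes had 17 windows in all. TTCNNNGAA, the form STAT3 is best known for, was found in 2 of the 17 windows, both of LIFR, and in 7.66% of all 35116 windows. TTCNNGAA was found in 4 of the 17, 1 each of IL6R, JAK1, SOCS3 and STAT3, and in 7.74% of all windows. GGGANTTTC was found in 1 of the 17, that of IL6, and in 1.28% of all windows. The windows of SOCS3 did not cover the bases just before its GENCODE start (chr17:78360077), which were therefore not searched. TTCNNNGAA and TTCNNGAA differ in length and cannot share both ends. These matches are a description of the letters in the windows and say nothing of whether a factor was bound.

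DU145 was set apart from the other lines in mono-culture by the ligands, OSMR, JAK1 and SOCS3. In bulk RNA fewer cells that make a transcript and less RNA per cell cannot be told apart. IL6, the founding ligand of the family, was at 13.6, 12.4 and 12.2 CPM in the 3 DU145 mono-cultures, at 0 in the 3 of C4-2B, at 0, 0 and 0.189 CPM in C4-2 and at 0.0897, 0 and 0 CPM in 22Rv1. DU145 was the only line of the 4 with IL6 above 6.01 counts in any library, and its mean of 12.7 ± 0.732 CPM (SD, n = 3) was at least 127-fold that of C4-2B, with 3 counts per library as the floor. LIF, a ligand that acts through LIFR and gp130, was at 40.5, 41.7 and 42.6 CPM in DU145, 4.40, 3.34 and 4.28 CPM in 22Rv1, 2.02, 1.76 and 2.06 CPM in C4-2B and 1.13, 1.02 and 1.37 CPM in C4-2. The order of LIF over the lines held in each library, and no neighbours in it overlapped. LIF in DU145 exceeded 22Rv1 by 3.38 ± 0.15 on the log2 scale (± SE, adjusted p = 4.57e-12), and C4-2B exceeded C4-2 by 0.78 ± 0.21 (adjusted p = 0.0207, edgeR quasi-likelihood test with Benjamini-Hochberg adjustment over all genes tested, as for each adjusted p here).

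The receptor chains divided the lines in different ways. IL6R, the chain that binds IL-6, was the member whose order put the BPCa lines first, with C4-2 at 37.3, 37.1 and 36.2 CPM and C4-2B at 36.1, 34.8 and 35.9 CPM, against 16.9, 17.0 and 16.8 CPM in DU145 and 7.76, 7.60 and 7.48 CPM in 22Rv1. C4-2 and C4-2B lay next to each other without overlap and their difference missed the threshold (log2 change of C4-2B over C4-2 -0.00 ± 0.06, adjusted p = 0.986), and DU145 was -1.16 ± 0.06 from each of them on the log2 scale (adjusted p = 1.73e-11 and 1.74e-11 by the edgeR quasi-likelihood test). IL6ST was at 98.9, 102 and 104.3 CPM in DU145 and between 14.2 and 21.8 CPM in the other lines. OSMR, which pairs with gp130 to receive oncostatin M, spanned the widest range among the chains, with 222.3, 233.3 and 244.6 CPM in DU145, 9.02 to 10.4 in C4-2B, 6.25 to 6.5 in C4-2 and 1.85 to 3.01 in 22Rv1. LIFR was at 18.9 to 21.2 CPM in DU145, 14.4 to 15.8 in C4-2, 12.5 to 14.0 in C4-2B and 5.52 to 7.75 in 22Rv1. The C4-2 and C4-2B ranges of LIFR did not overlap, yet their difference of -0.13 ± 0.10 on the log2 scale missed the threshold (adjusted p = 0.479 by the edgeR quasi-likelihood test).

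JAK1, the kinase that gp130 signalling depends on most, was at 45.2, 49.7 and 48.3 CPM in DU145 and between 2.78 and 4.33 CPM in the 9 mono-cultures of the other lines. It was 3.78 ± 0.18, 3.80 ± 0.18 and 3.70 ± 0.18 higher on the log2 scale in DU145 than in C4-2, C4-2B and 22Rv1 (largest adjusted p = 7.93e-12 by the edgeR quasi-likelihood test), and these 3 lines did not differ from each other in JAK1 beyond their spread (smallest adjusted p = 0.652). JAK2, the second kinase, was close to even, at 3.65 to 6.32 CPM over the 12 mono-cultures, and was the member with the narrowest range over the lines. STAT3 itself was at 187.5, 187.9 and 201.4 CPM in DU145, in C4-2 at 77.5, 75.0 and 75.7 CPM, in C4-2B at 70.7, 66.7 and 71.6 CPM and at 21.7, 24.0 and 19.6 CPM in 22Rv1. DU145 exceeded 22Rv1 by 3.16 ± 0.09 on the log2 scale (adjusted p = 1.09e-14 by the edgeR quasi-likelihood test), whereas C4-2B and C4-2 differed by -0.08 ± 0.08 (adjusted p = 0.629). SOCS3 was at 14.7, 14.8 and 14.3 CPM in DU145, at 0.212 to 0.332 CPM in 22Rv1, at 0 to 0.141 CPM in C4-2 and at 0.0169 to 0.0812 CPM in C4-2B, so that SOCS3 counts reached at most 10.7 in any mono-culture outside DU145.

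**Figure D1:**
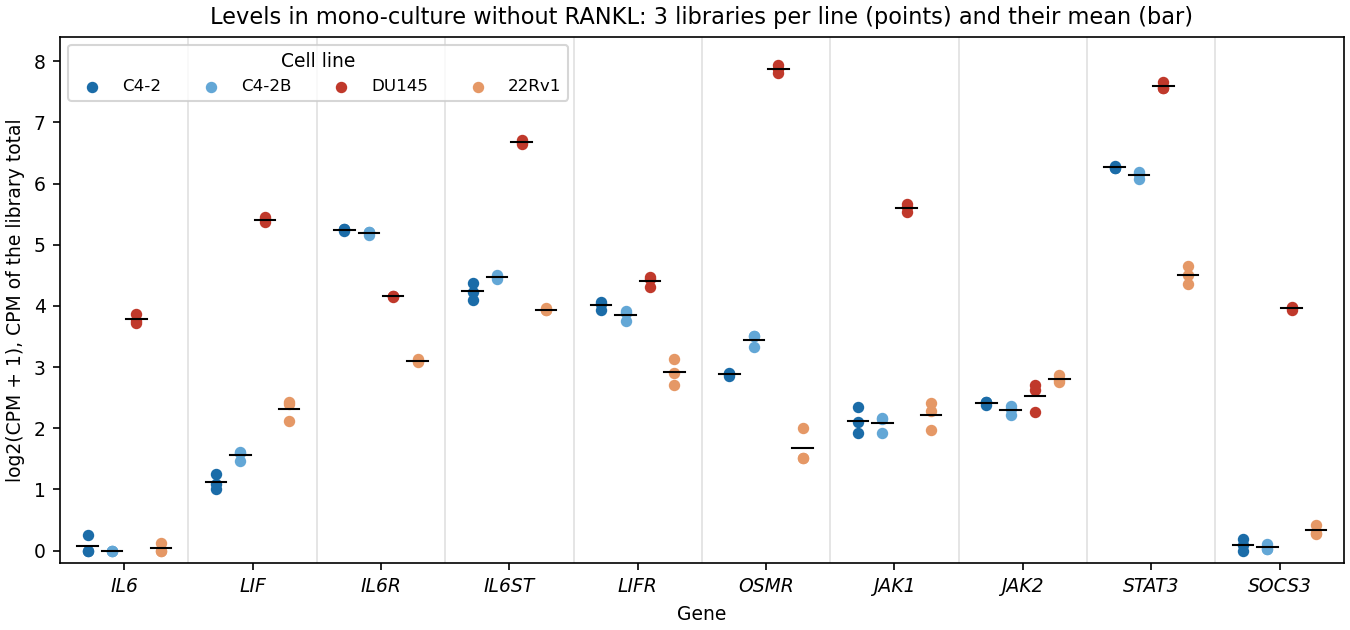
Levels of the 10 genes in mono-culture without RANKL as log2(CPM + 1), with a point for each of the 3 libraries per line and a bar at their mean. DU145 lies highest for IL6, LIF, IL6ST, OSMR, JAK1, STAT3 and SOCS3, while C4-2 and C4-2B lie highest for IL6R and the lines lie close together for JAK2.

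Per length of transcript, in TPM, a level per length that sums to 1000000 in each library, calculated from the deposited counts, STAT3 was the highest of the 10 in each line, at 70.1 ± 5.78 TPM in DU145, 23.7 ± 2.69 in C4-2B, 23.3 ± 1.81 in C4-2 and 7.31 ± 2.57 in 22Rv1 (mean ± SD, n = 3 mono-cultures). The gene next to it differed by line. In DU145 it was OSMR with 62.8 ± 2.47 TPM, whose highest library (64.5 TPM) passed the lowest of STAT3 (64.3 TPM), followed by IL6ST with 29.3 ± 6.28 TPM. In C4-2 and C4-2B it was IL6R with 14.1 ± 1.73 and 13.9 ± 1.53 TPM, and in 22Rv1 it was IL6ST with 6.91 ± 1.80 TPM, a value within the spread of STAT3. JAK1 exceeded JAK2 in DU145, at 13.2 ± 1.98 against 2.46 ± 0.437 TPM, while in the other lines the ranges of the pair overlapped.

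Over the 6 pairs of lines, 45 of the 60 tests of a member passed an adjusted p of 0.05 (edgeR quasi-likelihood test). DU145 differed from C4-2 in 9 of the 10 genes, where 78.3% of all 13437 genes tested differed, from C4-2B in 9 against a background of 79%, and from 22Rv1 in 10 against 79.6%. The tenth of these was JAK2 (-0.30 ± 0.13, adjusted p = 0.0494), a call kept in 4 of 21 alternative fits. C4-2 differed from 22Rv1 in 7 against 72%, and C4-2B from 22Rv1 in 8 against 72.5%. C4-2B differed from C4-2 in LIF and OSMR against a background of 13.6%. These calls were kept in 16 and 15 of 22 alternatives and lost without replicate 1 or 2 of C4-2 or replicate 1 or 3 of C4-2B (adjusted p from 0.0563 to 0.0834). That of OSMR was also lost without replicate 3 of C4-2 (adjusted p = 0.0682). The counts in either direction were close to the background for so short a list. DU145 was the higher of the pair in 8, 8 and 9 of the 10 genes against C4-2, C4-2B and 22Rv1, where 39.3%, 39.7% and 39.1% of all genes were called higher in DU145. IL6 and SOCS3 among them passed the filter of 100 counts only through DU145, which set their direction in advance. LIFR, also among them, turned to -0.25 against C4-2 and -0.015 against C4-2B with scaled TPM counts.

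Over mono-culture without RANKL, STAT3 rose with MG63 in the BPCa lines and in 22Rv1 and not in DU145. IL6 rose in DU145, and none of the receptor and kinase changes passed the threshold. The question of this comparison was how the cancer cells responded to osteoblast-like cells. In each line 2 co-cultures were set against 3 mono-cultures in a fit of the 20 libraries without RANKL. The fitted changes use library sizes scaled by the trimmed mean of M-values (TMM) and therefore differ somewhat from ratios of CPM.

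STAT3 was at 103.5 and 92.8 CPM in C4-2 with MG63, above each of its mono-cultures (75.0 to 77.5 CPM), at 87.1 and 89.2 CPM in C4-2B against 66.7 to 71.6, and at 29.6 and 27.9 CPM in 22Rv1 against 19.6 to 24.0. The groups did not overlap in these 3 lines. In DU145 it was at 197.6 and 152.6 CPM against 187.5 to 201.4, and the groups overlapped. The log2 change was 0.48 ± 0.09 in C4-2 (adjusted p = 0.0031), 0.40 ± 0.09 in C4-2B (adjusted p = 0.0131), 0.51 ± 0.10 in 22Rv1 (adjusted p = 0.00186) and -0.06 ± 0.09 in DU145 (adjusted p = 0.641, edgeR quasi-likelihood test). The effect of MG63 on STAT3 differed among the lines (adjusted p = 0.0199, quasi-likelihood test of the interaction). Without replicate 2 of DU145 with MG63 the change in DU145 was 0.12 ± 0.07 (adjusted p = 0.257) and the difference among lines still passed (adjusted p = 0.0179). Without replicate 3 of DU145 mono-culture it missed the threshold (adjusted p = 0.0545). Against mono-culture with RANKL as the control, which has a depth like that of the co-cultures, STAT3 was 0.43 higher in 22Rv1 (adjusted p = 0.00166) and 0.24 higher in DU145 (adjusted p = 0.0165), while 0.22 in C4-2 (adjusted p = 0.0743) and 0.11 in C4-2B (adjusted p = 0.485) missed the threshold in the edgeR fit. The value in C4-2 passed against this control when replicate 2 of DU145 with MG63 was left out (0.22, adjusted p = 0.00746), and that in C4-2B did not (0.11, adjusted p = 0.220). The call in C4-2B over mono-culture without RANKL was lost without either MG63 library (adjusted p = 0.0982 and 0.0981).

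**Figure D2:**
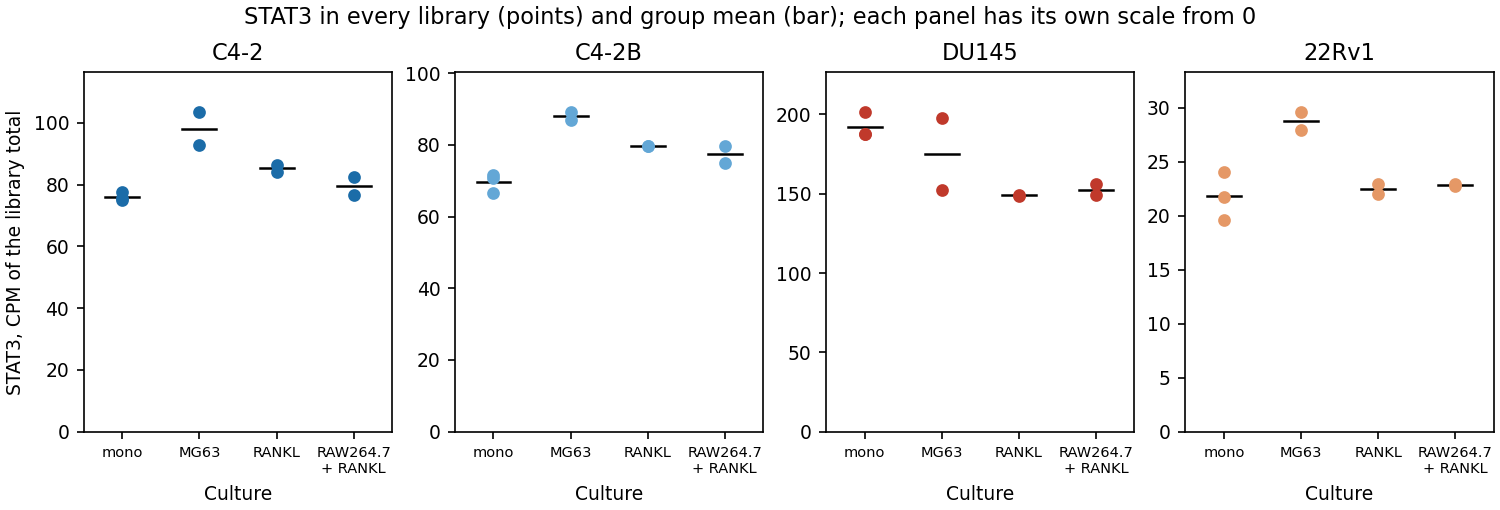
STAT3 in CPM in each of the 36 libraries, with a point per library and a bar at the group mean, by culture, in a panel per line that starts at 0. With MG63 the points lie above mono-culture in C4-2, C4-2B and 22Rv1. With RANKL alone they lie above mono-culture in C4-2 and C4-2B and below it in DU145.

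IL6 in DU145 was at 33.5 and 34.0 CPM with MG63, well above the 12.2 to 13.6 CPM of its mono-cultures and above the 9.18 to 12.9 CPM of its 4 libraries with RANKL. The log2 change over mono-culture was 1.48 ± 0.31 (adjusted p = 0.00499), a 2.78-fold rise, and 1.75 over mono-culture with RANKL (adjusted p = 0.00310, edgeR quasi-likelihood test). Transcripts that code for IL-6 protein gave 28.0 and 30.7 CPM with MG63 and 10.1 to 11.2 CPM in mono-culture. DESeq2 gave a change of like size, 1.52, but did not call it (adjusted p = 0.706). In C4-2, C4-2B and 22Rv1 with MG63, IL6 reached at most 0.181 CPM, and the mean of DU145 with MG63 was at least 159-fold that of C4-2 with MG63. The change was not shown to differ among the lines (adjusted p = 0.519), in a test where 3 lines had next to no IL6 counts.

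LIF fell in 22Rv1, from 4.40, 3.34 and 4.28 CPM to 2.04 and 2.42 CPM without overlap (log2 change -0.74 ± 0.24, adjusted p = 0.0405 by the edgeR quasi-likelihood test). The 22Rv1 libraries with RANKL alone were also low, at 2.84 and 2.12 CPM, and against them MG63 made no called change. The call was kept in 20 of 31 alternatives and was lost, for example, with no count filter (adjusted p = 0.0507) and without replicate 1 or 3 of 22Rv1 mono-culture or either 22Rv1 library with MG63 (adjusted p from 0.0938 to 0.287). In DU145 with MG63 LIF was at 56.2 and 38.1 CPM against 40.5 to 42.6 CPM, and in C4-2 and C4-2B the groups overlapped.

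Of the receptor chains none was called in any line in this fit, although several libraries of the BPCa lines with MG63 lay outside the range of mono-culture. OSMR was at 11.3 and 8.13 CPM in C4-2 with MG63 against 6.25 to 6.5 CPM (log2 change 0.71 ± 0.23, adjusted p = 0.0678) and at 13.6 and 13.9 CPM in C4-2B against 9.02 to 10.4 CPM (0.53 ± 0.22, adjusted p = 0.162 by the edgeR quasi-likelihood test). IL6ST in C4-2B was at 26.4 and 27.9 CPM against 20.8 to 21.8 CPM, without overlap (0.42 ± 0.21, adjusted p = 0.281). LIFR was lower than every mono-culture in each line, at 12.1 and 12.0 CPM in C4-2, 9.19 and 10.4 in C4-2B, 18.2 and 15.0 in DU145 and 5.10 and 5.22 in 22Rv1, with log2 changes from -0.39 to -0.21 that missed the threshold (smallest adjusted p = 0.0708). IL6R differed from mono-culture without RANKL by at most 0.16 on the log2 scale in either direction. In DU145 replicate 2 with MG63 was far below replicate 1 in 3 receptors, with IL6ST at 48.3 against 105.6 CPM, OSMR at 133.5 against 243.2 and IL6R at 12.6 against 15.8 CPM.

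JAK1 in that same library was instead high, at 74.1 CPM against 45.5 CPM in replicate 1 and 45.2 to 49.7 CPM in mono-culture. Of its JAK1 counts 64.2% were assigned to transcripts that code for no protein, 63.1% to a single processed transcript, whereas no other DU145 library had more than 7.04% of JAK1 counts in such transcripts. Its coding JAK1 transcripts gave 26.5 CPM, below the 36.1 to 46.6 CPM of the other 8 DU145 libraries. Over both replicates the change of JAK1 in DU145 was 0.39 ± 0.17 (adjusted p = 0.0852), and without replicate 2 it was 0.01 ± 0.15 (adjusted p = 0.982 by the edgeR quasi-likelihood test). In 22Rv1 JAK1 was at 1.82 and 2.03 CPM with MG63 and at 4.33, 2.93 and 3.84 CPM alone, without overlap, but missed the threshold in the fit of 20 libraries (-0.83 ± 0.29, adjusted p = 0.0546). JAK2 was between 2.78 and 5.30 CPM with MG63 and was not called in any line (smallest adjusted p = 0.128).

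SOCS3, a direct STAT3 target, was at 11.9 and 14.0 CPM in DU145 with MG63 against 14.3 to 14.8 CPM in mono-culture (log2 change -0.10 ± 0.23, adjusted p = 0.762 by the edgeR quasi-likelihood test). In C4-2 it was called higher (adjusted p = 0.0256) on counts of 6.76 and 3.60 with MG63 and 4.74, 0 and 1.90 in the deeper mono-cultures, which is too few for a fold change. In C4-2B the counts were 3.61 and 2.14 with MG63 against 0.619, 2.45 and 0.624 (adjusted p = 0.0925), and in 22Rv1 the groups overlapped. The effect of MG63 on SOCS3 was called different among the lines (adjusted p = 0.0322), on the same few counts. That call was lost with the replicate number as a block and without any 1 of 8 libraries (adjusted p from 0.0550 to 0.118).

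**Figure D3:**
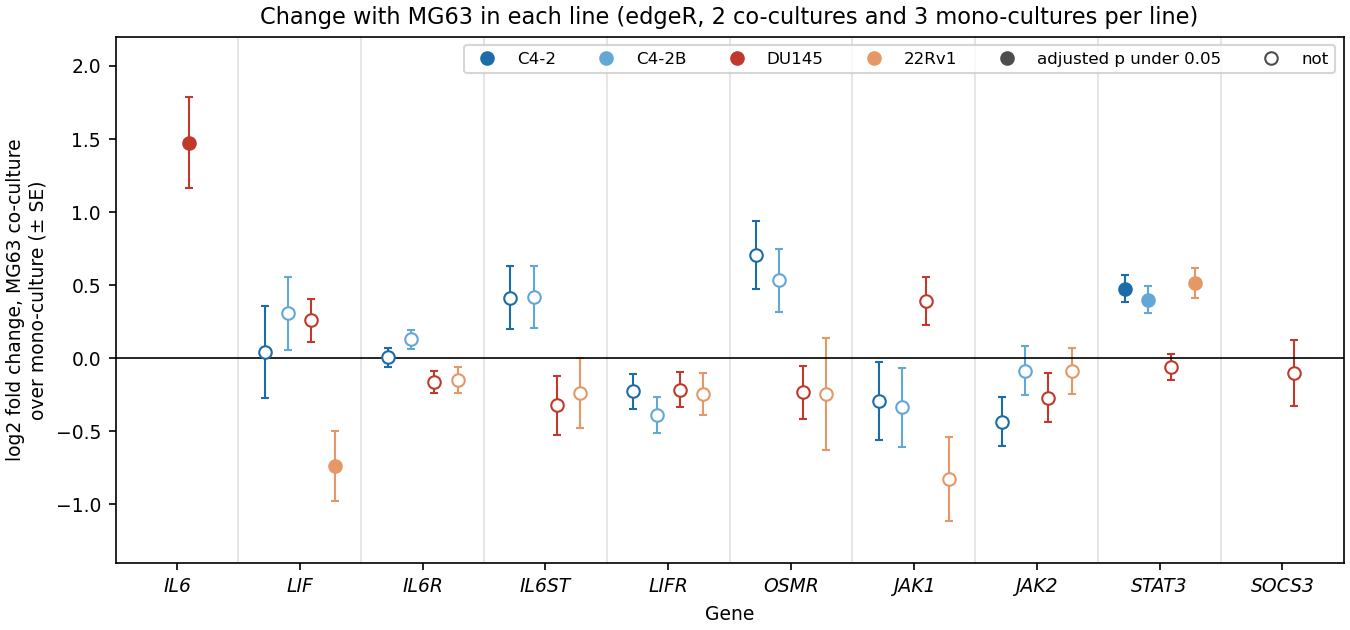
Log2 fold change of each gene with MG63 over mono-culture per line, from the edgeR fit, with bars of ± SE; 6 values of IL6 and SOCS3 in C4-2, C4-2B and 22Rv1 are not drawn because no library reached 30 counts. STAT3 lies above 0 in C4-2, C4-2B and 22Rv1 and near 0 in DU145, IL6 in DU145 lies highest at 1.48, and LIFR lies below 0 in each line.

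In all, 6 of the 40 tests with MG63 passed an adjusted p of 0.05 (edgeR quasi-likelihood test): STAT3 and SOCS3 in C4-2, where 10.1% of all genes were called, STAT3 in C4-2B (7.41%), IL6 in DU145 (30.5%), and STAT3 and LIF in 22Rv1 (20.4%). For DU145 and 22Rv1 the count was at or below that background. SOCS3 was tested in C4-2 only because its counts passed the filter in DU145. The effect of MG63 differed among the lines for STAT3 and SOCS3 of the 10, where 14.5% of all genes differed. Without replicate 2 of DU145 with MG63 the spread shared by all lines was smaller and 13 tests passed: 4 in C4-2 against a background of 23.9%, 4 in C4-2B (20.2%), 2 in DU145 (15%) and 3 in 22Rv1 (36.4%). OSMR and IL6ST then rose in C4-2 (0.70 and 0.41 on the log2 scale, adjusted p = 0.00138 and 0.00301) and C4-2B (0.53 and 0.42, adjusted p = 0.00509 and 0.00255), LIFR fell by 0.39 in C4-2B (adjusted p = 0.0226), JAK1 fell by 0.83 in 22Rv1 (adjusted p = 0.00945), and LIF rose by 0.52 in DU145 (adjusted p = 0.0120, same test). In that fit DU145 had 1 co-culture, whose spread was taken from the other groups. Against mono-culture with RANKL, also without replicate 2, OSMR and IL6ST changed by 0.24 and 0.23 in C4-2 and by 0.87 and 0.44 in C4-2B. LIFR then changed by -0.16 in C4-2B, JAK1 by -0.70 in 22Rv1 and LIF by 0.15 in DU145. Without replicate 1 of DU145 with MG63 instead, IL6R, IL6ST, LIFR, OSMR and STAT3 were lower in DU145 than in mono-culture, and IL6 and JAK1 were higher. IL6ST and OSMR in DU145 thus changed sign with the library used, as they were 0.13 ± 0.09 and 0.14 ± 0.09 above mono-culture without replicate 2 (adjusted p = 0.356 and 0.355).

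Against mono-culture with RANKL as the control 7 tests passed. In C4-2 LIF was lower (-1.18, adjusted p = 0.0425, background 10.3%), in C4-2B OSMR was higher (0.87, adjusted p = 0.0124, background 7.63%), in DU145 IL6, JAK1 (0.67, adjusted p = 0.00538) and STAT3 were higher (background 36.5%), and in 22Rv1 STAT3 and IL6R (1.12, adjusted p = 5.37e-06) were higher (background 15.3%, edgeR quasi-likelihood test). IL6 in DU145 and STAT3 in 22Rv1 were the calls made against both controls. Without replicate 2 of DU145 with MG63 the JAK1 call in DU145 was lost (0.24 ± 0.16, adjusted p = 0.304), while IL6 (1.71, adjusted p = 0.0140) and STAT3 (0.39, adjusted p = 6.28e-05) kept theirs and OSMR was called higher (0.40, adjusted p = 0.00214 by the edgeR quasi-likelihood test). The coding JAK1 transcripts were at 44.1 and 26.5 CPM with MG63 and 36.1 and 36.3 CPM with RANKL. As the co-cultures with MG63 held no RANKL, this contrast also carries the effect of RANKL.

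Other genes of the pathway, from lists written for it, were tested in the same fit. Among 8 other ligands of the family 4 could be tested, and IL11, a gp130 ligand known from bone, was lower with MG63 in C4-2, at 0.694 and 0.443 CPM against 1.60 to 1.80 CPM (-1.45 ± 0.41, adjusted p = 0.0357), and in C4-2B, at 0.415 and 0.832 CPM against 2.15 to 2.71 CPM (-1.90 ± 0.40, adjusted p = 0.00812 by the edgeR quasi-likelihood test). With mono-culture with RANKL as the control IL11 was at -1.51 in C4-2 (adjusted p = 0.0521) and -1.20 in C4-2B (adjusted p = 0.180), which missed the threshold, and it was called lower in DU145 (-1.50, adjusted p = 0.000115). None of the 3 other receptors was called. Among other kinases and STATs, STAT2 and STAT5B were lower in DU145. TYK2, the third kinase of the receptor complexes, was at 39.1 to 102 CPM in the 20 libraries without RANKL and was not called in any line. Of 11 negative regulators 9 were tested: PTPN6, a phosphatase that counters JAK signals, was higher in DU145 (0.27 ± 0.09, adjusted p = 0.0413) and in 22Rv1 (0.59 ± 0.08, adjusted p = 0.000178), and CISH, PTPN1 and SOCS2 were lower in DU145. That is 4 of 9 in a line where 30.5% of all genes were called. PTPN6 against mono-culture with RANKL was at -0.02 in DU145 (adjusted p = 0.949) and 0.08 in 22Rv1 (adjusted p = 0.727), and the calls of STAT2, STAT5B and PTPN1 in DU145 were also lost (adjusted p = 0.418, 0.265 and 0.457), while CISH and SOCS2 stayed lower. Without replicate 2 of DU145 with MG63, SOCS2 kept its call in DU145 and STAT2, STAT5B, PTPN6, CISH and PTPN1 lost theirs.

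More STAT3 target genes were called higher than lower with MG63 in the 4 lines, by the least in 22Rv1. Of 36 listed 29 were tested, and 13 were higher and 1 lower in C4-2, 11 and 2 in C4-2B, 12 and 3 in DU145 and 6 and 4 in 22Rv1, where 10.1%, 7.41%, 30.5% and 20.4% of all genes were called in either direction. The median log2 change of the 29 was 0.28 in C4-2, 0.18 in C4-2B, 0.28 in DU145 and 0.09 in 22Rv1, where that of all genes was -0.01, -0.00, -0.06 and 0.00. Many of the listed genes also answer to NF-kB or interferon, so that their change does not single out STAT3. Against mono-culture with RANKL the counts were 11 and 1, 13 and 2, 12 and 2 and 6 and 5 (backgrounds of 10.3%, 7.63%, 36.5% and 15.3%). Without replicate 2 of DU145 with MG63 they were 17 and 1, 13 and 5, 9 and 1 and 7 and 4 (backgrounds of 23.9%, 20.2%, 15% and 36.4%).

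SAA1, which codes for serum amyloid A, was at 0 in each of the 3 mono-cultures of C4-2 and of C4-2B, at 19.7 and 18.4 CPM in C4-2 with MG63 and at 8.55 and 9.43 CPM in C4-2B with MG63. Taking 3 counts per library as the floor, the rise was at least 175-fold in the former line and at least 90-fold in the latter. In DU145 SAA1 went from 3.97, 4.63 and 4.33 CPM to 28.1 and 46.6 CPM (3.18 ± 0.26 on the log2 scale, adjusted p = 2.46e-05 by the edgeR quasi-likelihood test), and in 22Rv1 it stayed at or below 0.237 CPM. SAA2, a near-identical copy that can share reads with SAA1, went from 0.540, 0.194 and 0.229 CPM to 26.3 and 16.9 CPM in C4-2, and the split between these genes is uncertain. LRG1, an acute-phase glycoprotein gene, went from 3.29, 2.97 and 2.66 CPM to 13.5 and 11.7 CPM in C4-2 (2.19 ± 0.28, adjusted p = 9.47e-05) and rose by 2.13 ± 0.28 in C4-2B (adjusted p = 0.000301), while DU145 and 22Rv1 had at most 0.689 CPM of LRG1 without RANKL.

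Among the transcription factors of the list, CEBPD and JUNB rose in all 4 lines. CEBPD, an acute-phase regulator, was at 28.8 and 31.9 CPM in C4-2 with MG63 against 12.9 to 14.3 CPM, and its log2 change was 1.25 ± 0.10 in C4-2, 1.12 ± 0.11 in C4-2B, and 1.21 ± 0.09 in DU145 (largest adjusted p = 1.34e-05 by the edgeR quasi-likelihood test). In 22Rv1 CEBPD went from 14.8, 16.5 and 19.7 CPM to 33.6 and 34.1 CPM (adjusted p = 3.01e-06). JUNB, a subunit of AP-1, rose by 1.13 in C4-2, 0.80 in C4-2B, 0.41 in DU145 and 0.98 in 22Rv1. IRF1, a transcription factor of interferon responses, rose by 2.07 ± 0.20 in C4-2 and 1.87 ± 0.21 in C4-2B and by 0.42 ± 0.15 in DU145 (adjusted p = 0.0411), and ICAM1, an adhesion molecule that NF-kB also induces, rose by 1.61, 1.16 and 0.75. CEBPB, a mediator of IL-6 responses, rose by 1.46 ± 0.17 in DU145 (98.9 and 193 CPM against 51.7 to 60.2 CPM) and by 0.67 ± 0.18 in C4-2B. FOS, the AP-1 subunit, rose by 1.89, 1.64 and 0.90 in C4-2, C4-2B and DU145. In the other direction VEGFA, the vascular growth factor gene, fell by 0.78 in C4-2, 0.72 in C4-2B and 0.45 in 22Rv1, and PIM1, a survival kinase gene, fell by 0.39 in DU145 and 0.58 in 22Rv1. VEGFA against mono-culture with RANKL turned to 0.64 in C4-2B and was called higher (adjusted p = 0.000756), and it was at -0.20 in C4-2 (adjusted p = 0.335) and 0.06 in 22Rv1 (adjusted p = 0.808 by the edgeR quasi-likelihood test). Against that control the calls of IRF1 in DU145, CEBPB in C4-2B and FOS in C4-2 were lost (adjusted p = 0.133, 0.0922 and 0.170). The calls of IRF1, FOS and PIM1 in DU145 were lost without replicate 2 of DU145 with MG63.

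**Figure D4:**
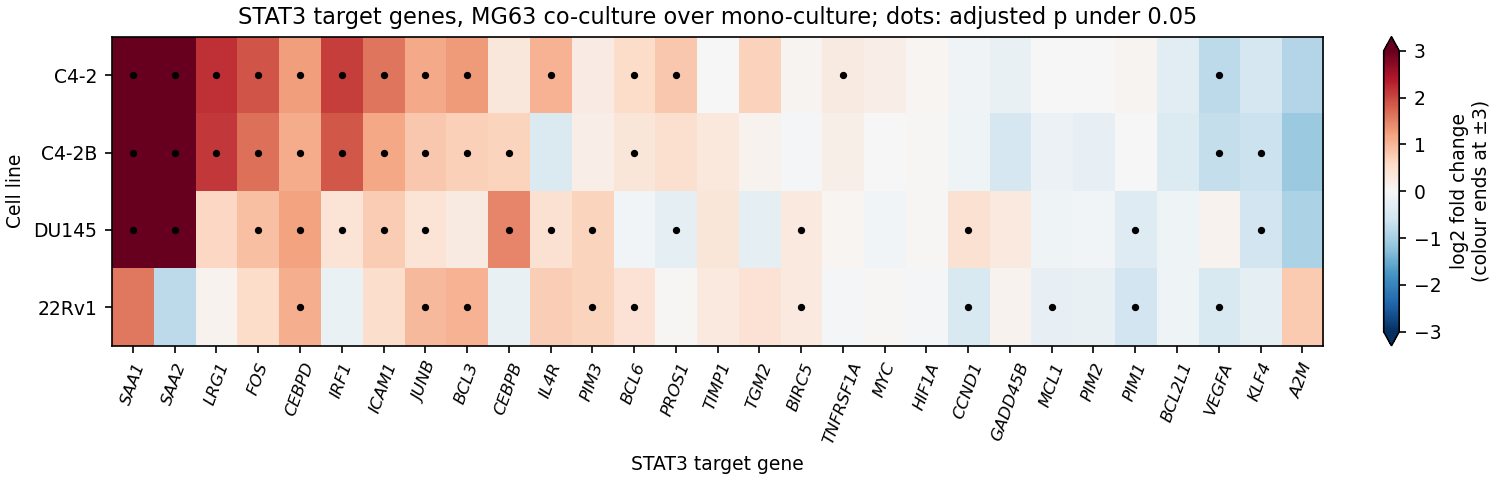
Log2 fold change of the 29 tested STAT3 target genes with MG63 over mono-culture in each line, as colour with its ends at ±3, and a dot where the adjusted p was under 0.05. The dots number 14 in C4-2, 13 in C4-2B, 15 in DU145 and 10 in 22Rv1, and the deepest red lies at SAA1 and SAA2 outside 22Rv1.

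With RAW264.7 and RANKL, compared with mono-culture with RANKL, no member was called in any line. This comparison asked how the cancer cells responded to osteoclast-forming cells, and 2 libraries were set against 2 in each line. IL6 in DU145 was at 12.9 and 9.18 CPM with RAW264.7 and 10.9 and 9.27 CPM without, and STAT3 in C4-2 was at 82.4 and 76.7 CPM with and 86.5 and 84.1 CPM without, where the values of STAT3 did not overlap. Of 36 tests (JAK2 fell below the count filter) 0 passed an adjusted p of 0.05 in edgeR, 0 had an unadjusted p under 0.05, and DESeq2 called 0. IL6R in 22Rv1 had the change nearest to it in the edgeR fit (0.47 ± 0.22 on the log2 scale, unadjusted p = 0.0514). With no count filter the unadjusted p in 22Rv1 was 0.0498 for IL6R and 0.0318 for IL6, the latter on at most 6.01 counts (edgeR quasi-likelihood test). With 2 libraries against 2 these tests do not show that the members were alike in both cultures. All genes gave 0.0174% called in C4-2, 0.139% in C4-2B, 0.026% in DU145 and 0.00868% in 22Rv1, and 0.0347% for a difference in effect among the lines, where again none of the 9 members tested was called. In DU145, the line with the most counts in these genes, the log2 differences lay between -0.09 and 0.12. Of 25 STAT3 target genes tested, FOS was higher in C4-2B (8.57 and 6.45 CPM against 0.390 and 0.503 CPM, 4.09 ± 0.45 on the log2 scale, adjusted p = 0.00366 by the edgeR quasi-likelihood test), and no other was called.

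RANKL alone, compared with mono-culture without it, went with changes of STAT3 in opposite directions. The 2 kinds of mono-culture differed in depth and in the number of libraries, and a batch that the labels do not give cannot be told apart from RANKL. STAT3 was at 86.5 and 84.1 CPM with RANKL in C4-2 against 75.0 to 77.5 CPM (0.25 ± 0.07 on the log2 scale, adjusted p = 0.0137), at 79.6 and 79.8 CPM in C4-2B against 66.7 to 71.6 CPM (0.28 ± 0.07, adjusted p = 0.00964) and at 148.5 and 149.5 CPM in DU145 against 187.5 to 201.4 CPM (-0.26 ± 0.07, adjusted p = 0.00483 by the edgeR quasi-likelihood test). The groups did not overlap in these 3 lines, and a difference of the RANKL effect among lines was not tested. With no count filter the calls in C4-2 and C4-2B were lost (adjusted p = 0.0987 and 0.0718) and that in DU145 was kept (adjusted p = 0.00855). The strongest call was IL6R in 22Rv1, which fell from 7.76, 7.60 and 7.48 CPM to 3.39 and 2.84 CPM (-1.27 ± 0.13, adjusted p = 1.09e-07), and in 22Rv1 with RAW264.7 and RANKL it was at 4.84 and 3.29 CPM. SOCS3 in DU145 fell from 14.3 to 14.8 CPM to 9.18 and 7.30 CPM (-0.72 ± 0.27, adjusted p = 0.0414, and 0.0552 with no count filter). In C4-2 LIF rose from 1.02 to 1.37 CPM to 1.66 and 3.72 CPM (1.22 ± 0.30, adjusted p = 0.00551) and LIFR fell from 14.4 to 15.8 CPM to 10.7 and 11.1 CPM (-0.39 ± 0.11, adjusted p = 0.0136).

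In all 7 of 40 tests with RANKL passed in the edgeR fit of 36 libraries, 3 higher and 4 lower, which is 3 in C4-2 against a background of 18.3%, 1 in C4-2B (14.4%), 2 in DU145 (32.5%) and 1 in 22Rv1 (17.7%). In DU145 the 4 libraries with RANKL were below the 3 mono-cultures without it in OSMR (170.3 to 193.1 against 222.3 to 244.6 CPM), JAK1 (36.9 to 39.1 against 45.2 to 49.7 CPM) and STAT3 (148.5 to 156.1 against 187.5 to 201.4 CPM). They were also below in IL6ST (86.3 to 98.4 against 98.9 to 104.3 CPM) and SOCS3 (7.30 to 9.18 against 14.3 to 14.8 CPM). Of these genes STAT3 and SOCS3 were called. In LIF they were above (49.5 to 54.5 against 40.5 to 42.6 CPM), which was not called.

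**Figure D5:**
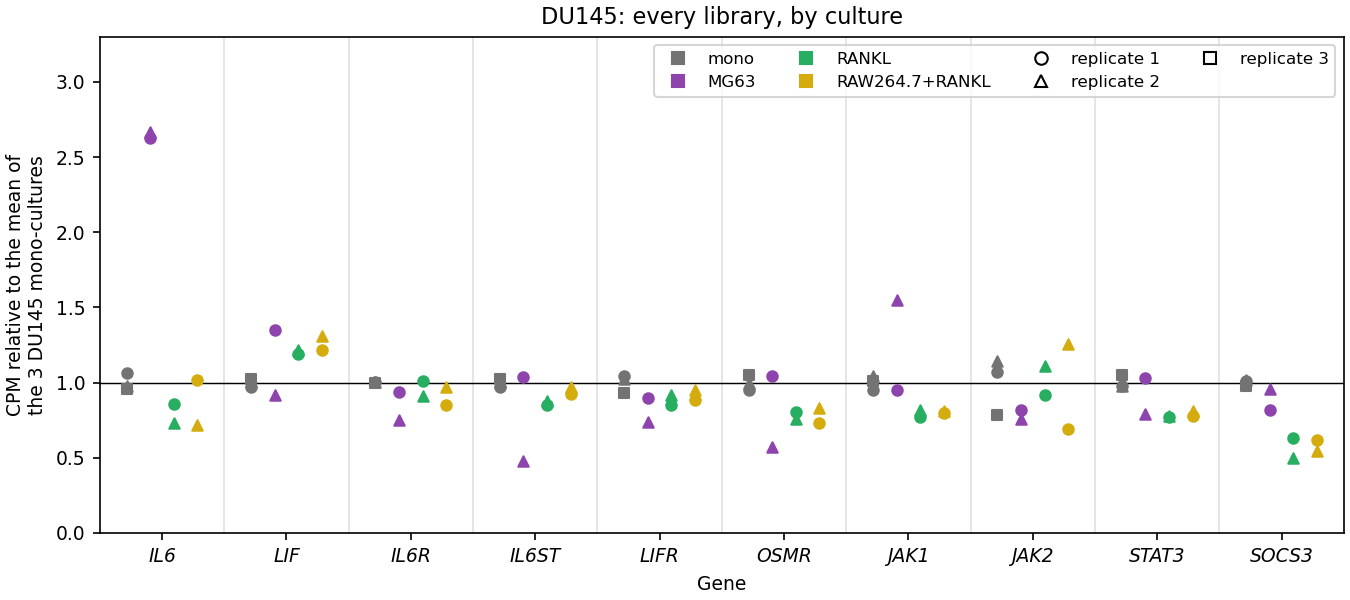
The 10 genes in each of the 9 DU145 libraries, as CPM relative to the mean of the 3 DU145 mono-cultures, by culture. IL6 with MG63 lies above all other points of that gene, and replicate 2 with MG63 lies low for IL6ST and OSMR and high for JAK1. The libraries with RANKL lie below the mono-cultures for IL6ST, OSMR, JAK1, STAT3 and SOCS3 and above them for LIF.

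Several members are made in more than 1 protein form. Transcripts for the STAT3 protein of 770 residues took 66.7% to 83.1% of STAT3 counts over the 36 libraries, and those for the form of 769 residues 4.12% to 16.3%. The form of 722 residues, STAT3 beta, which lacks the usual transactivation tail, took 7.15 ± 1.50% in DU145, 10.7 ± 1.50% in C4-2, 10.4 ± 1.39% in C4-2B and 10.9 ± 2.27% in 22Rv1 (mean ± SD, n = 9 libraries of all cultures). IL6R counts lay mostly in transcripts for the membrane-bound protein of 468 residues, 61.1% to 100% per library, and 0% to 11.0% lay in those for the soluble form of 365 residues. For IL6ST transcripts of the protein of 918 residues took 51.3% to 100%. The coding transcript JAK1-201 took a median of 97.1% of JAK1 counts in DU145 and 76.3% to 80.4% in the other lines, where JAK1 counts were low. These shares are kallisto estimates over overlapping transcripts and are uncertain where counts are low, and no test was made on them.

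The genes whose pattern was most like that of a member were sought over the 16 group means, as Pearson's r of log2(CPM + 1) among 13437 genes, for description. For IL6 they were S100A3 (r = 0.998), WNT5B (0.995) and AKR1B1 (0.995), for JAK1 ANXA5 (0.996), PLPPR3 (0.995) and WNT5B (0.994), and for SOCS3 VSIR (0.998), SERP2 (0.997) and COL4A1 (0.997). The points share the high level of DU145, which sets r: AKR1B1, for example, had group means of 229.3 to 862.5 CPM in DU145 and at most 0.709 CPM elsewhere.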

How the data were processed

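RNA of 36 cultures of 4 prostate cancer cell lines was sequenced. Per the labels the authors quantified reads with kallisto (version and index not given in the labels, which name FastQC and the build hg19), and the deposited table holds estimated counts per transcript, not normalised, with symbols. Its 161149 lines named 159837 transcripts, 1312 lines repeated a transcript with identical values and were dropped, and 0 columns were left out. The transcript names match GENCODE 29 for 95.4% of transcripts, whose GRCh38 lengths and positions were used. Counts without a symbol (0.526% to 0.764% per library) were left out of the tests.

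Estimated counts were summed per gene and rounded. Genes with 100 or more counts in at least 1 tested library were kept, as in the methods of the study, and tested with edgeR 4.0.16 (TMM, quasi-likelihood) in R 4.3.3, with Benjamini-Hochberg adjustment and a call at an adjusted p under 0.05. IL6 and SOCS3 passed the count filter only through DU145 libraries. The study itself used scaled TPM counts, tried here as an alternative. MG63 and line contrasts were fitted on the 20 libraries without RANKL, RAW264.7 contrasts on the 16 with it, and RANKL contrasts on all 36. The fit was tested on simulated counts. Alternatives were DESeq2 1.42.0, other scalings, filters, sample sets, a replicate block, thinned counts and leaving out each library. The 10 members and the gene lists were chosen with earlier results of these data known. Outside the members, the 8 list genes with the largest change called with MG63 in at least 2 lines were named (SAA1, SAA2, LRG1, IRF1, IL11, FOS, ICAM1, CEBPB), and CEBPD, JUNB, VEGFA, PIM1, PTPN6, TYK2, STAT2, STAT5B, CISH, PTPN1, SOCS2, COL5A2, RUNX2, TWIST1, CD68 and CTSK were added after their values were seen. One gene of the pathway lists is not reported here. The list counts against mono-culture with RANKL and without replicate 2 of DU145 with MG63, and the members under both changes together, were also added after seeing the data. Depth and floors cover counting error only.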

Additional observations from a re-analysis of the deposited data

Results flagged for a closer look

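Over mono-culture without RANKL, the log2 changes of STAT3 with MG63 were 0.48 in C4-2, 0.40 in C4-2B, 0.51 in 22Rv1 and -0.06 in DU145. Against mono-culture with RANKL they were 0.22, 0.11, 0.43 and 0.24, and a difference among the lines was not tested there. In the former comparison the effect of MG63 on STAT3 differed among the 4 lines (adjusted p = 0.0199, edgeR quasi-likelihood test of the interaction). It missed the threshold when replicate 3 of DU145 mono-culture was left out (adjusted p = 0.0545) and passed without each of the other 19 libraries. SOCS3 had at most 10.7 counts in any library outside DU145 and passed the count filter only through DU145. The effect of MG63 on SOCS3 differed on those few counts (adjusted p = 0.0322, edgeR quasi-likelihood test of the interaction). It missed the threshold without any 1 of 8 libraries, which were the 3 mono-cultures of DU145, replicate 3 of C4-2 and replicates 1 and 3 of C4-2B in mono-culture, and replicate 1 of C4-2 and of C4-2B with MG63 (adjusted p from 0.0550 to 0.118), and with the replicate number as a block (adjusted p = 0.0566).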

How the results depend on the processing

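Of the 40 tests with MG63, 6 passed in the fit as reported, 10 with library totals as the only scaling, 10 with all 36 libraries in the fit, 3 with a rule of more than 2-fold and an unadjusted p under 0.05, and 0 with scaled TPM counts. Of the 40 with RANKL, 7 passed, against 11 with the 20 mono-cultures only, 4 with no filter, 3 with the 2-fold rule and 0 with scaled TPM counts. The number of members whose MG63 effect differed among the lines was 2, against 5 in DESeq2. Leaving out 1 library gave 4 to 18 calls with MG63, 0 to 7 members with a difference among lines, 5 to 7 calls with RANKL, 42 to 46 calls between lines (45 of 60 tests in the full fit), and 0 with RAW264.7. The count with MG63 rose to 18 and 13 without replicate 1 or 2 of DU145 with MG63, and the members that differed among lines rose to 7 and 5. That last number fell to 0 without replicate 3 of DU145 mono-culture and to 1 without C4-2 replicate 3, C4-2B replicates 1 or 3 or DU145 replicates 1 or 2 of mono-culture, or without replicate 1 of C4-2 or C4-2B with MG63. LIFR in DU145 turned to -0.25 against C4-2 and -0.015 against C4-2B with scaled TPM counts. The cause was not tested, except that fits with fewer libraries hold fewer samples. STAT3 with MG63 ranged over the alternatives from 0.22 to 0.55 in C4-2, 0.11 to 0.43 in C4-2B and 0.40 to 0.59 in 22Rv1, and IL6 in DU145 from 1.41 to 1.75.

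With the replicate number as a block, 5 calls with MG63, 6 with RANKL and 44 between lines passed, and 1 member differed among lines. Same-numbered libraries did not deviate together (correlations of -0.0291 to 0.000958 for MG63 and mono-culture), so the block pairs libraries by number alone. Against mono-culture with RANKL 7 tests passed, and 9 when replicate 2 of DU145 with MG63 was also left out. The depth limits IL6 and SOCS3 outside DU145, where counts were too low for a fold change, and JAK2 was below the count filter in the 16 libraries with RANKL alone or with RAW264.7. With no filter its change with RAW264.7 was -0.07 to 0.17 (SE of 0.27 to 0.30).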
